A study of Mus musculus with 19 samples.

Results

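Capillary endothelial cells of Peyer's patches were set against those of peripheral lymph nodes, by the sample titles, with 3 arrays in each group. Peyer's patches are the lymphoid follicles of the small intestine, and peripheral lymph nodes drain skin and muscle. The 6 arrays belong to a series of 19, which also holds 2 capillary arrays of mesenteric lymph nodes, the nodes that drain the gut, and 11 arrays of high endothelial cells (HEC). HEC line the venules through which lymphocytes enter these tissues. The RNA came from adult BALB/c mice, an inbred strain, that were 6 to 8 weeks old and untreated as far as the labels say, with males and females mixed in equal parts. The labels give neither the gate of the capillary sorts nor the number of pooled animals, and they do not say that arrays of a group came from separate sorts. The p-values thus measure the spread between arrays within groups, pooled over all 19 arrays, which may be technical. All 19938 genes that had a probe set with 1 gene symbol were compared. Values are RMA signals on the log2 scale that the authors had centred for each probe set, so a value can be compared between arrays but not between genes, and 0 is the unstated centre and not an absence of signal.

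A capillary bed is fed by arterioles and drained by venules, and its endothelium changes along that path. Arterial cells express connexins and Notch target genes, venous cells express adhesion molecules and chemokine-binding proteins, and the capillary segment between them exchanges gases, water, lipids and solutes with the tissue. Position along the body adds a further layer, in which homeodomain transcription factors and local signals such as retinoic acid, a vitamin A product that is plentiful in the gut, set tissue identity.

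The cells matched their label by most markers, with traces of other cells that differed between arrays. The mean over 21 pan-endothelial genes was 0.64, 0.62 and 0.55 in Peyer's patch arrays 1 to 3 and 0.65, 0.51 and 0.47 in the peripheral arrays, and the transcription factor Sox17 was the 1 member that differed past the threshold. The mean over 19 capillary genes was 2.39 to 2.52 in Peyer's patch capillary arrays and 2.59 to 2.65 in peripheral ones, against -0.60 and -0.32 in HEC of these tissues. Over 19 high endothelial genes HEC stood at 3.36 and 3.59, while peripheral capillary arrays 1 and 2 stood at 0.67 and 0.69 and array 3 at -0.07. The Peyer's patch capillary arrays lay at -0.27, -0.63 and -0.35 on that list, below every peripheral array.

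**Figure D1:**
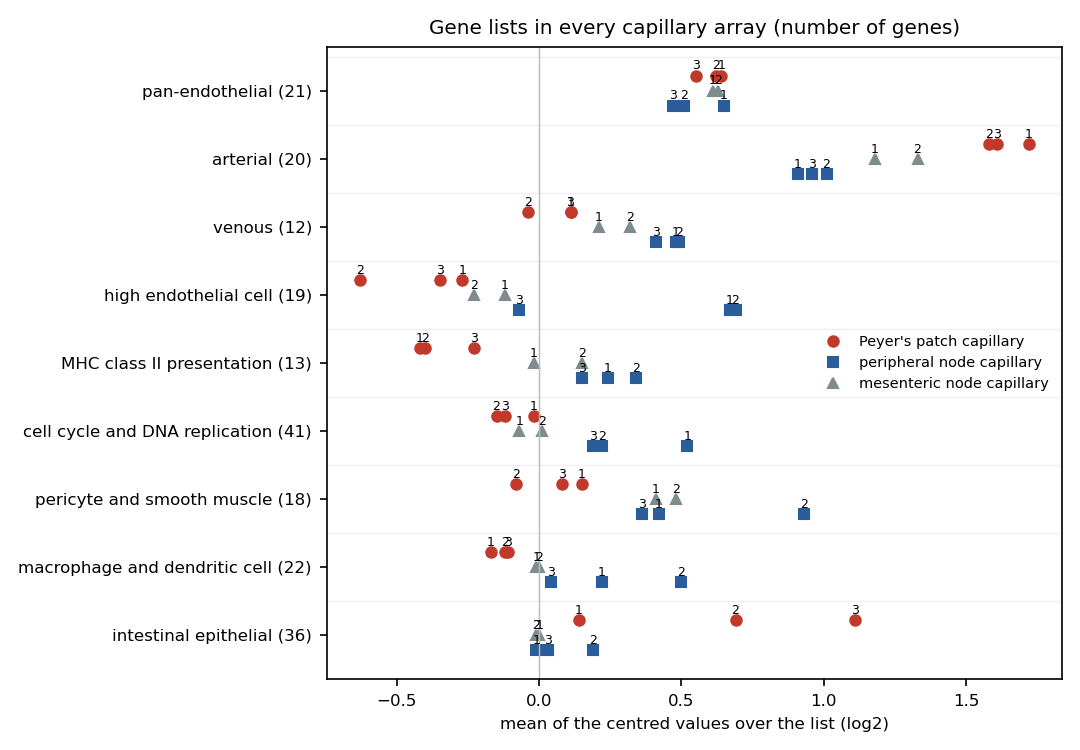
Mean of the centred log2 values over the genes of 9 lists (horizontal axis) in each capillary array, with the array number above each point. Circles are Peyer's patch arrays, squares peripheral arrays and triangles mesenteric arrays. Arterial genes were higher in all 3 Peyer's patch arrays (1.58 to 1.72) than in the peripheral arrays (0.91 to 1.01), while intestinal epithelial genes reached 1.11 in Peyer's patch array 3 and 0.14 in array 1.

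Transcripts of intestinal epithelium were not even among the Peyer's patch arrays. The mean over 36 epithelial genes was 0.14 in array 1, 0.69 in array 2 and 1.11 in array 3, against -0.01 to 0.19 in the peripheral arrays. Fabp2, the intestinal fatty acid binding protein, was -0.07, 4.10 and 3.82 in Peyer's patch arrays 1 to 3 and -0.12, -0.07 and 0.05 in the peripheral arrays, so that array 1 overlapped the peripheral group. Markers of mural cells, which wrap vessels, went the other way: the mean over 18 pericyte and smooth muscle genes was 0.42, 0.93 and 0.36 in peripheral arrays and 0.15, -0.08 and 0.08 in Peyer's patch arrays. The mean over 22 macrophage and dendritic cell genes was 0.22, 0.50 and 0.04 against -0.17, -0.12 and -0.11. Over 16 lymphatic endothelial genes, Itih5 among them, it was 0.37, 0.66 and 0.21 against 0.04, -0.02 and 0.06. Over 18 fibroblast and reticular stromal genes it was 0.13, 0.58 and 0.10 against -0.01, -0.06 and 0.10. Peripheral array 1 also held less of the Y-linked transcripts Eif2s3y (-1.61) and Uty (-1.65) than the other 5 arrays (-0.66 to -0.02) and more of the X-inactivation transcript Xist (1.02, against 0.00 to 0.55). No part of these traces in the differences below was tested, except where values without an array are given, and fewer cells of a type and less RNA per cell cannot be told apart in such pools.

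Of the 19938 genes, 925 differed between the capillary groups (limma, adjusted p under 0.05), which is 4.64% of those tested. In Peyer's patch 478 genes were higher (2.4%) and 447 lower (2.24%). At least a 2-fold change, a log2 difference of 1, was reached by 122 of the higher and 131 of the lower genes. The 3 arrays of a group did not overlap those of the other in 915 of the 925. The calls rest on the same arrays and favour such genes, so that count is only a description. Of the calls 531 (285 higher and 246 lower) held when each of the 6 arrays was left out in turn, and "held" is used in that sense from here on. Without Peyer's patch array 2 there were 648 calls, of which 288 lower. Without peripheral arrays 1 and 2 there were 354 and without Peyer's patch arrays 2 and 3 there were 368, each with a lone array on 1 side that was assumed to vary like the other groups. The 15 highest and 15 lowest differences, described next, stayed past the threshold under all 18 alternatives tried for single genes.

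The highest difference was that of Scgb3a1, a small secreted protein of the secretoglobin family. It stood at 4.78, 4.50 and 4.40 in the Peyer's patch arrays and at -0.21, 0.79 and 1.61 in the peripheral arrays, a difference of 3.83 ± 0.35 (SE, adjusted p = 1.82e-06). All Peyer's patch arrays were high, with an SD of 0.19, array 1 with the fewest epithelial transcripts among them. A part of epithelial cells in the difference was not tested. A pair of calcium-activated chloride channel regulators followed: Clca3a1 (3.52, 3.54 and 3.25 against -0.47, -0.14 and -0.50) and Clca3a2 (2.77, 2.81 and 2.55 against -0.31, 0.00 and -0.47). They are near-identical copies in the genome, so probes may not separate them, and their differences of 3.81 ± 0.28 and 2.97 ± 0.31 may be 1 signal. Muc1, a membrane mucin, was higher as well (1.33 ± 0.11, adjusted p = 9.01e-07).

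Receptors for lipid and neural mediators were among the highest genes. Cysltr1, a receptor for cysteinyl leukotrienes, stood at 3.39, 3.85 and 3.49 in Peyer's patch and at -0.28, -0.18 and -0.04 in peripheral arrays, a difference of 3.74 ± 0.26 (adjusted p = 1.03e-07). Chrm2, a muscarinic acetylcholine receptor, stood at 3.21, 3.93 and 3.00 against 1.34, 1.43 and 1.13, a difference of 2.08 ± 0.25 (adjusted p = 4.17e-05). Both were high in every Peyer's patch array, with gaps between the groups larger than the range within either. Tmem35a, which assists the assembly of nicotinic acetylcholine receptors, was higher by 2.03 ± 0.14. P2ry6, a receptor for uridine diphosphate, stood at 2.62, 2.33 and 2.46 against 0.52, 0.47 and 0.57 (1.95 ± 0.11, adjusted p = 4.78e-09).

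The remaining high genes fall into metabolism, transcription and membrane proteins. Pcx, pyruvate carboxylase, which feeds carbon into the citric acid cycle, stood at 2.69, 2.56 and 2.44 against 0.25, 0.00 and -0.05 (2.49 ± 0.10, adjusted p = 1.17e-10). Prom1, a membrane glycoprotein known as a stem cell marker, stood at 3.68, 3.67 and 3.81 against 0.75, 1.27 and 0.96 (2.72 ± 0.12, adjusted p = 3.51e-10). The epithelial mean rose from 0.14 in Peyer's patch array 1 to 1.11 in array 3, in which Pcx was lowest and Prom1 highest of the group. A part of epithelial cells in either difference was not tested. Gadd45g, a stress-induced growth arrest gene, was higher by 2.64 ± 0.19, Klf12, a zinc finger repressor, by 2.37 ± 0.15, and Mctp1, a calcium-binding membrane protein, by 2.92 ± 0.21.

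The lowest genes were led by Glycam1, a mucin-like carrier of L-selectin ligands that HEC secrete. It stood at 4.42, 4.11 and 1.70 in the peripheral arrays and at -0.66, -2.26 and -1.38 in Peyer's patch, a difference of -4.84 ± 0.50 (adjusted p = 9.22e-06). Peripheral arrays 1 and 2, with the higher high endothelial values, were far above array 3, and without them the difference was -3.13. Itih5, a hyaluronan-binding protein of the extracellular matrix, had a difference of the same size with little spread, at 2.55, 2.14 and 1.99 in peripheral arrays against -2.43, -2.65 and -2.74 (-4.84 ± 0.17, adjusted p = 4.14e-11). It is also on the lymphatic endothelial list, and a part of lymphatic cells in its difference was not tested.

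Among the lowest was also Slc14a1, a urea transporter. It stood at 4.00, 3.03 and 3.12 in peripheral arrays and at -1.04, -1.03 and -1.02 in Peyer's patch (-4.42 ± 0.22, adjusted p = 1.98e-09). Car2, a cytosolic carbonic anhydrase, stood at 1.03, 0.45 and 0.47 in peripheral arrays against -1.93, -2.24 and -2.47 (-2.86 ± 0.21, adjusted p = 1.69e-07). The groups were far apart in both genes, and peripheral array 1 was the highest of all in each. Atp1b1, a subunit of the sodium pump, was lower by 2.76 ± 0.19 and Piezo2, a mechanically gated channel, by 1.92 ± 0.15 as the mean of 3 probe sets.

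Surface and secreted proteins made up most of the rest. Btnl9, a butyrophilin-like membrane protein, stood at 4.04, 4.14 and 4.49 in peripheral arrays and at 0.84, 1.19 and 0.97 in Peyer's patch (-3.22 ± 0.12, adjusted p = 4.29e-11). Sema3c, a secreted semaphorin, stood at 2.34, 2.36 and 1.87 in peripheral arrays and at -0.19, -0.41 and -0.66 in Peyer's patch (-2.61 ± 0.15, adjusted p = 9.61e-09). Peripheral arrays were uniformly high for both genes. Bmp2, a bone morphogenetic protein, differed by -1.92 ± 0.25, Gpr37, an orphan receptor, by -2.01 ± 0.13, Olfml2a, an olfactomedin-like matrix protein, by -2.25 ± 0.20, and Itm2a, a membrane protein, by -2.81 ± 0.22. Map2, a microtubule-associated protein, differed by -1.93 ± 0.11 and AI504432, which has no given function, by -3.17 ± 0.25.

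**Figure D2:**
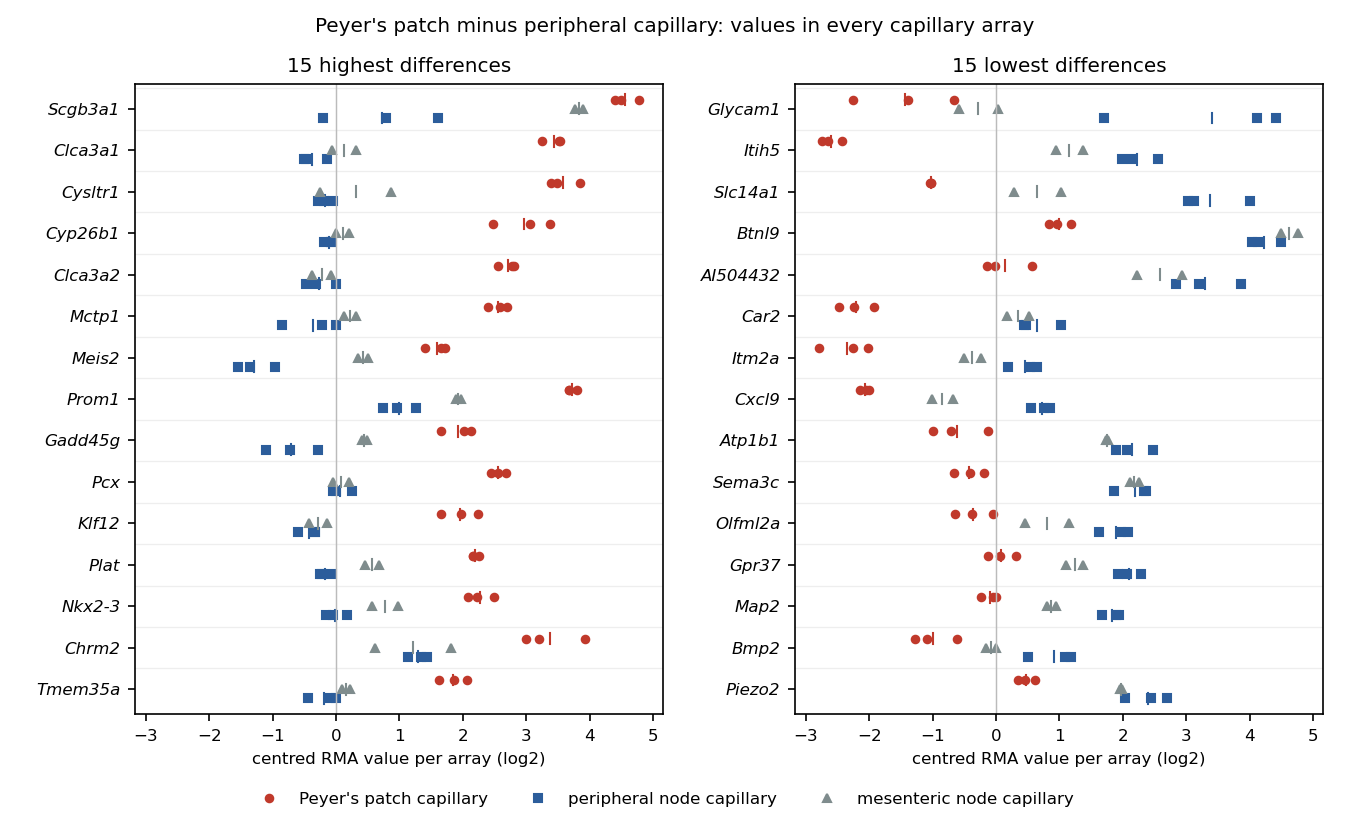
Centred log2 values (horizontal axis) in every capillary array for the 15 highest and the 15 lowest differences of Peyer's patch minus peripheral capillary cells. Circles are Peyer's patch arrays, squares peripheral arrays, triangles mesenteric arrays and bars group means. The 2 compared groups overlap in none of the 30 genes, since the choice of genes required it, and mesenteric arrays lie beside the Peyer's patch group for Scgb3a1 and beside the peripheral group for Btnl9 and Sema3c.

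Genes of arterial endothelium were higher in Peyer's patch capillary cells. Of 20 arterial genes measured 10 were higher and 0 lower, and 8 of the 10 held. The share of all genes that were higher was 2.4%. The list's median difference was 0.54 beside -0.02 over all genes. There were 6 higher without peripheral arrays 1 and 2. All 20 differences were above 0 as deposited and with arrays centred on the median, and 18 were after a further quantile normalization.

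Gja5, a connexin of arterial endothelium, stood at 3.42, 3.59 and 3.61 in Peyer's patch and at 1.83, 1.97 and 2.00 in peripheral arrays (1.60 ± 0.18, adjusted p = 1.85e-05). Bmx, a tyrosine kinase of arterial endothelium, stood at 2.47, 2.07 and 2.01 against 0.92, 1.07 and 0.99 (1.19 ± 0.12, adjusted p = 5.04e-06). Sox17, which specifies arterial fate, stood at 2.02, 2.03 and 1.97 against 1.05, 1.13 and 1.10 (0.92 ± 0.09, adjusted p = 8.17e-06). The spread within each group was small beside these gaps. Edn1, the vasoconstrictor endothelin 1, was higher by 1.84 ± 0.27, the lymphatic growth factor Vegfc by 1.59 ± 0.17 and the elastic fibre protein Fbln5 by 0.88 ± 0.16, all 3 held. A further arterial connexin (Gja4, 0.78 ± 0.17) lost its call without Peyer's patch array 3 (0.63, adjusted p = 0.0773) and without peripheral array 2 (0.70, adjusted p = 0.0644). Ligands and receptors that define arteries stayed near no difference, with 0.18 ± 0.13 for the ephrin Efnb2 (adjusted p = 0.70) and 0.02 for the neuropilin Nrp1. Smooth muscle genes, which accompany arteries, were not higher in the same arrays: 6 of 18 were lower and 1 higher (38.9% beside 4.64%), Acta2 at -1.39 ± 0.23 and Myh11 at -1.15 ± 0.16, with 3 lower calls left without Peyer's patch array 2 or without peripheral array 2.

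Venous genes went the other way where they differed. Of 12 measured 5 were lower and 0 higher, 41.7% beside 2.24% of all genes lower, with 3 lower without peripheral array 2 and 1 without peripheral arrays 1 and 2. Lrg1, a secreted glycoprotein of venules, stood at -0.37, 0.09 and 0.00 in Peyer's patch and at 1.59, 1.67 and 1.85 in peripheral arrays (-1.80 ± 0.14, adjusted p = 4.20e-07). Ackr1, the chemokine-binding Duffy receptor of venules, stood at 0.15, -0.66 and 0.16 against 0.89, 1.05 and 1.03 (-1.11 ± 0.19, adjusted p = 0.00158). In both genes peripheral array 3, with a high endothelial mean of -0.07 but Glycam1 at 1.70, was as high as arrays 1 and 2. A part of HEC in either difference was not tested. Lrg1 and Ackr1 are also on the high endothelial list below and count among its lower genes. The results of the lists are thus not separate. The Ackr1 mean was 3.57 in Peyer's patch HEC and 3.45 in peripheral HEC. Aplnr, the apelin receptor, was lower by 0.87 ± 0.15. Nr2f2, the transcription factor COUP-TFII that sets venous fate, was lower by 0.72 ± 0.15 (adjusted p = 0.00846) and lost its call without peripheral array 2 (-0.62, adjusted p = 0.0584). Ephb4, the venous ephrin receptor, differed by 0.08 and Vwf, von Willebrand factor, by 0.28 ± 0.24 (adjusted p = 0.777).

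**Figure D3:**
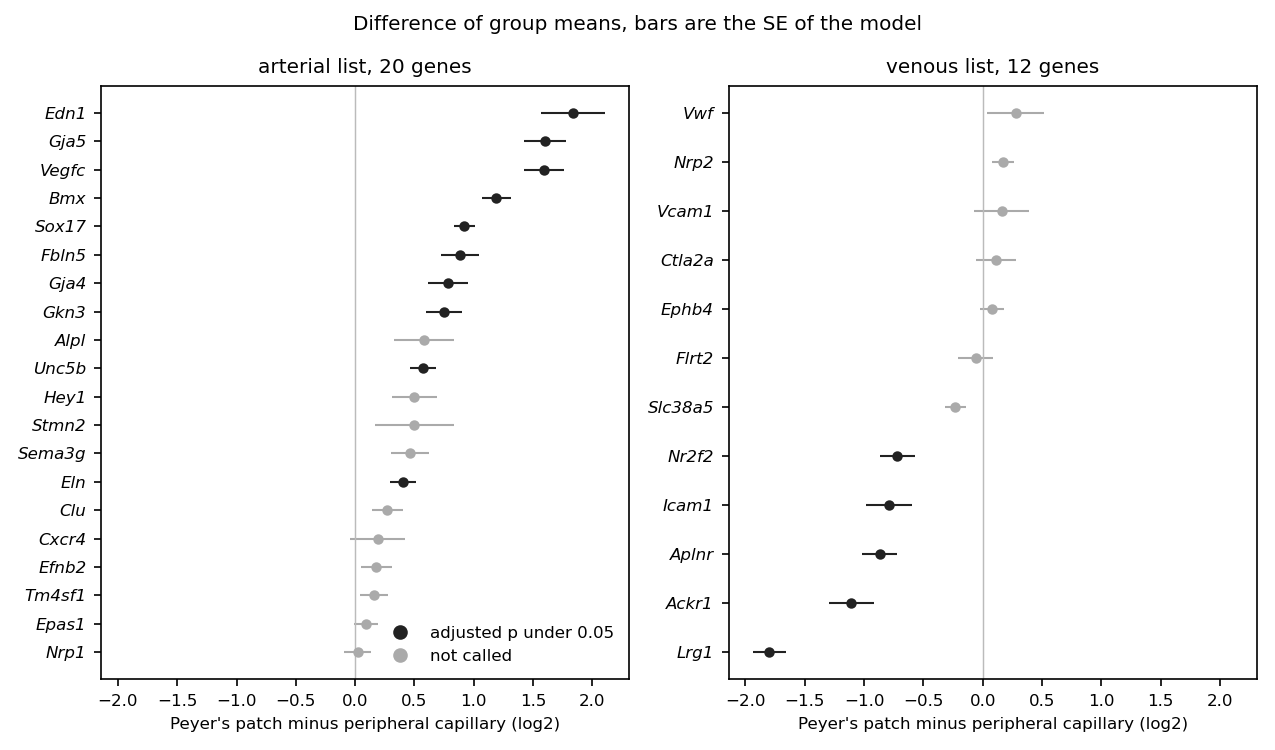
Difference of group means (log2, horizontal axis) for the 20 arterial and 12 venous genes, with the SE of the model as bars. Black points passed the threshold. All 20 arterial points lie above 0 (18 after quantile normalization), led by Edn1 at 1.84, and the 5 called venous genes lie between -1.80 and -0.72.

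The Notch pathway, in which ligands on 1 cell switch on Hes and Hey genes in its neighbour, was split. Of 19 genes 2 were higher and 6 lower, 42.1% called beside 4.64% of all genes, with 2 higher and 5 lower that held. The ligand Jag1 stood at 1.23, 1.18 and 1.05 in Peyer's patch and at 0.19, 0.04 and -0.13 in peripheral arrays (1.12 ± 0.12, adjusted p = 1.97e-05), and the target Hey2, an arterial repressor, was higher by 1.26 ± 0.20. The ligand Dll1 (-0.74 ± 0.16), the receptor Notch2 (-0.98 ± 0.20), the glycosyltransferase Lfng (-0.70 ± 0.14) and the target Nrarp (-0.62 ± 0.12) were lower. Dll4, the main arterial ligand, was at 0.07. Without peripheral arrays 1 and 2 there were 2 higher and 0 lower, and without Peyer's patch arrays 2 and 3 there were 1 higher and 0 lower.

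Genes of sprouting vessels were lower where they differed, apart from 1. In a list of 16 tip cell and growth factor genes 6 were lower and 1 higher (43.8% beside 4.64%), with 1 lower without peripheral arrays 1 and 2. Angpt2, a destabilising ligand of the Tie2 receptor, was lower by 1.13 ± 0.23 (adjusted p = 0.00619) and Fscn1, an actin-bundling protein, by 0.79 ± 0.14 (adjusted p = 0.00198). Apln, the apelin ligand, was lower by 1.03 ± 0.21 and lost its call without peripheral array 2 (-0.84, adjusted p = 0.0504). Esm1, a proteoglycan secreted by tip cells, was the exception at 3.97, 4.38 and 4.27 against 2.80, 2.45 and 3.02 (1.45 ± 0.19, adjusted p = 8.20e-05). Among growth factors Vegfa was higher by 0.64 ± 0.10, while its receptor Kdr differed by -0.22 ± 0.13 (adjusted p = 0.576). Ramp3, a partner of the adrenomedullin receptor, was lower by 1.37 ± 0.22.

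Genes of retinoic acid handling held the fourth highest difference. Cyp26b1, the enzyme that breaks retinoic acid down, stood at 2.48, 3.37 and 3.06 in Peyer's patch and at -0.07, -0.07 and -0.18 in peripheral arrays, a difference of 3.07 ± 0.18 (adjusted p = 1.00e-08). Rarb, a retinoic acid receptor that is itself a classical target of the pathway, stood at 1.18, 0.81 and 0.85 against -0.04, 0.18 and -0.20 (0.97 ± 0.11, adjusted p = 2.76e-05). Both were high in all Peyer's patch arrays. Rdh10, which makes retinaldehyde from retinol, was lower (-1.34 ± 0.22), and so was the retinol-binding protein Rbp7 (-1.39 ± 0.34), a call lost without any 1 of Peyer's patch arrays 2 and 3 and peripheral arrays 2 and 3 (-1.27 to -1.13, adjusted p = 0.102 to 0.129). The list of 24 genes held 2 higher and 2 lower, 16.7% beside 4.64%. The retinaldehyde dehydrogenases Aldh1a1 (0.06), Aldh1a2 (-0.02) and Aldh1a3 (-0.06) and the sister enzyme Cyp26a1 (-0.01) stayed near 0.

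The promoter of Rarb is shown because it carries the retinoic acid response element of textbooks, a pair of half-sites in the same direction. The 150 bases before its start (RefSeq, GRCm38.p6, chr14:16575477-16575626, minus strand) are printed 5′ to 3′ along the gene, with the half-sites GGTTCA and AGTTCA in capitals.
Rarb: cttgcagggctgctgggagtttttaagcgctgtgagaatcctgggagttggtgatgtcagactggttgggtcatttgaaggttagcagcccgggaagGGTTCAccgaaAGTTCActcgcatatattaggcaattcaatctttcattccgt
The element begins 53 bases before the start and has 5 bases between the half-sites. In windows of 250 bases before to 50 after the start, searched on both strands, the same pair at the same spacing was in 2 of 32851 promoters, or 0.00609%. The search used the exact letters printed above, so the match in Rarb was given in advance. Pairs with other letters or spacing were not counted, so the share does not tell how common such elements are. A single half-site of other letters, AGGTCA, was in 16.3% of windows. The windows of Cyp26b1 and Rbp7 held no match, which says only that these letters are not in them. Deposited values bear on the transcript and not on binding to this element.

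Homeodomain genes that mark position differed in both directions. Meis2, a cofactor of Hox proteins, stood at 1.72, 1.66 and 1.40 in Peyer's patch and at -1.36, -0.96 and -1.54 in peripheral arrays (2.88 ± 0.18, adjusted p = 1.88e-08). Nkx2-3, which is needed for vascular identity in gut lymphoid tissue and spleen, stood at 2.50, 2.08 and 2.22 against -0.15, 0.17 and -0.04 (2.27 ± 0.18, adjusted p = 4.20e-07). Neither group overlapped the other. Of 43 Hox, Meis and Pbx genes 4 were higher and 3 lower, 16.3% beside 4.64% of all genes. Besides Meis2 the higher ones were Meis1 (0.83 ± 0.15), Hoxb4 (0.61 ± 0.09) and Hoxa5 (0.68 ± 0.14, but 0.54 with adjusted p = 0.0517 without peripheral array 1). The lower ones were genes of the HoxD cluster, Hoxd9 (-1.17 ± 0.16), Hoxd10 (-0.80 ± 0.16) and Hoxd8 (-0.68 ± 0.18), the last of which lost its call without any 1 of 5 arrays (adjusted p = 0.0615 to 0.195). The other 36 genes did not pass the test.

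Further transcription factors were Tcf15, a partner of Meox2 in capillaries of heart and muscle, higher by 1.07 ± 0.14, and Maf and Meox1, lower by 1.11 ± 0.16 and 1.00 ± 0.15. Meox2 itself was at 0.04 ± 0.22 and Gata4, a factor of liver sinusoids and proximal gut, at 0.05 ± 0.14 (adjusted p = 0.981 and 0.956).

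Genes of MHC class II presentation, by which cells display peptides to CD4 T cells, were lower in Peyer's patch capillary cells. Of 13 measured 6 were lower and 0 higher, 46.2% beside 2.24%, and 12 of 13 differences were below 0. H2-Ab1, a class II beta chain, stood at -1.39, -1.19 and -0.92 in Peyer's patch and at 0.41, 0.25 and 0.23 in peripheral arrays (-1.46 ± 0.17, adjusted p = 2.81e-05). Cd74, the invariant chain that escorts class II molecules, stood at -1.64, -1.50 and -1.20 against 0.55, 0.38 and 0.00 (-1.76 ± 0.22, adjusted p = 6.74e-05). All 3 peripheral arrays were above all Peyer's patch arrays in both genes. H2-Ea (-1.32 ± 0.20) and H2-Aa (-0.95 ± 0.13) held too. H2-Eb1 (-0.57 ± 0.12) lost its call without Peyer's patch array 2 (adjusted p = 0.0507) or peripheral array 2 (adjusted p = 0.0565), and the peptide-loading chain H2-DMa (-0.65 ± 0.17) lost it without any 1 of 5 arrays (adjusted p = 0.0608 to 0.145). The master regulator Ciita was at -0.19. Of 17 class I genes 0 were called by limma in either direction, with a median of 0.08 and 3 at an unadjusted p under 0.05, while 2 were higher after quantile normalization and 1 without peripheral array 1.

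Macrophages, dendritic cells and B cells carry class II at high levels. Over the macrophage and dendritic cell list 3 of 22 genes were lower in Peyer's patch (13.6% beside 2.24% of all genes), 0 of which held, and all 22 differences were below 0, with a median of -0.29. Of this list 5 were lower without peripheral array 3, 0 without either array 2, and 1 without any 1 of the other arrays. B cell genes had a median of -0.08, with 0 of 13 called by limma and 0 at an unadjusted p under 0.05. The macrophage mean of peripheral array 3 was 0.04, still above the -0.17 to -0.11 of the Peyer's patch arrays. Against that array alone H2-Ab1 differed by -1.40, Cd74 by -1.45, H2-Ea by -0.99 and H2-Aa by -0.72. A part of macrophages or dendritic cells in the class II differences was not tested.

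The Y box, a CCAAT-type element that binds the factor NF-Y, is a known part of class II promoters, and H2-Aa and H2-Eb1 are shown because their windows in the RefSeq table held it. Each is 150 bases before the start (GRCm38.p6), 5′ to 3′ along the gene, with the Y box CTGATTGG in capitals. H2-Aa lies at chr17:34287824-34287973 on the minus strand and H2-Eb1 at chr17:34305717-34305866 on the plus strand.
H2-Aa: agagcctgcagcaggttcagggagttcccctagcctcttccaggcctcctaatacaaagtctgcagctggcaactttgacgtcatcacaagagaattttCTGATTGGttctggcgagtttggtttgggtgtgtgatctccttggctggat
H2-Eb1: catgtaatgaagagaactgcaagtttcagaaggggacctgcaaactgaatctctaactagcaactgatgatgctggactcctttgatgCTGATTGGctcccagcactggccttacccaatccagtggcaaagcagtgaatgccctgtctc
The motif starts 51 bases before the start in H2-Aa and 62 before it in H2-Eb1. The table holds windows for 3 of the 6 lower class II genes, and the third, H2-DMa, had no match in its 2 windows, which says only that these letters are not there. Searched on both strands in windows of 250 bases before to 50 after the start, it was in 1346 of 32851 promoters, or 4.1%. Both genes were lower in Peyer's patch (by 0.95 and 0.57), and the motif is a description of their promoters only.

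Genes that interferons induce differed in both directions. Of 28 genes 5 were lower and 3 higher (28.6% beside 4.64%), with a median of 0.01. Cxcl9, a chemokine that interferon gamma induces and that draws CXCR3-bearing T cells, stood at -2.00, -2.15 and -2.05 in Peyer's patch and at 0.76, 0.85 and 0.55 in peripheral arrays (-2.79 ± 0.17, adjusted p = 1.85e-08). The antiviral gene Rsad2 was lower by 1.26 ± 0.20 and Irf7 by 0.89 ± 0.14, while the GTPase Iigp1 was higher by 1.09 ± 0.16. The other higher members, Mx2 (0.86 ± 0.23) and Irgm1 (0.92 ± 0.25), each lost their calls without any 1 of 5 arrays, so 1 was higher then (adjusted p = 0.0526 to 0.191). Irf1, an interferon-induced transcription factor listed with the NF-kB pathway, was higher by 1.12 ± 0.14.

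Of 30 chemokines 5 were lower and 2 higher (23.3% beside 4.64%), with 3 lower without Peyer's patch array 2 or peripheral array 2. Besides Cxcl9 the neutrophil attractant Cxcl1 (-0.94 ± 0.19) and the membrane-bound fractalkine Cx3cl1 (-0.86 ± 0.17) were lower and held. Cxcl12, which draws CXCR4-bearing cells, stood at 0.37, 0.34 and 0.34 against 0.00, -0.34 and -0.27 (0.56 ± 0.14, adjusted p = 0.0213), and left any 1 of 5 arrays out its adjusted p ran from 0.0611 to 0.115. Its scavenging receptor Ackr3 stood at 1.38, 1.45 and 1.31 against -0.13, -0.07 and 0.35 and was higher by 1.33 ± 0.14 (adjusted p = 1.35e-05).

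High endothelial genes were lower in Peyer's patch capillary cells, in part through 2 peripheral arrays. Of 19 genes 8 were lower and 1 higher, 47.4% called beside 4.64% of all genes, and 6 lower calls held. The lower genes include Lrg1 and Ackr1, which the venous list also holds. There were 3 lower without peripheral arrays 1 and 2. Fut7, a fucosyltransferase that completes L-selectin ligands, stood at -0.15, -0.54 and 0.00 in Peyer's patch and at 1.24, 0.91 and 0.35 in peripheral arrays (-1.06 ± 0.18, and -0.58 without peripheral arrays 1 and 2). Chst4, the sulfotransferase of these ligands, stood at -0.10, -0.37 and -0.17 against 2.19, 1.57 and -0.15 (-1.42 ± 0.36, adjusted p = 0.031), so that peripheral array 3 lay among the Peyer's patch arrays. Without peripheral arrays 1 and 2 its difference was -0.07, and its call was lost without any 1 of the arrays but peripheral array 3 (adjusted p = 0.0598 to 0.154). Chst2, a second sulfotransferase, did not follow that split, at -0.75, -0.59 and -1.01 in Peyer's patch against 0.41, 0.50 and 0.37 in peripheral arrays (-1.21 ± 0.14, adjusted p = 2.59e-05).

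The homing receptor ligand Madcam1, which binds integrin alpha 4 beta 7 of gut lymphocytes, was the high endothelial gene that was higher. It stood at 0.00, -0.42 and 0.46 in Peyer's patch and at -0.92, -0.62 and -1.34 in peripheral arrays (0.97 ± 0.23, adjusted p = 0.0163). The call was lost without Peyer's patch array 3 (0.75, adjusted p = 0.113) or peripheral array 3 (0.78, adjusted p = 0.0919). Of 18 genes of L-selectin ligand synthesis 8 were lower and 2 higher (55.6% beside 4.64%), with 3 lower without peripheral array 1 or Peyer's patch array 2. The list's mean was 0.75, 0.57 and 0.27 in peripheral arrays 1 to 3 and 0.10, -0.17 and -0.12 in Peyer's patch arrays. Fut7 and Chst4 act on these ligands and are high endothelial genes too, so the results of these lists are not separate. St6gal1, the sialyltransferase that makes CD22 ligands on HEC, was higher by 0.68 ± 0.14.

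Capillary genes proper differed in both directions, with 3 higher and 5 lower of 19, 42.1% beside 4.64% of all genes. Cd300lg, also called nepmucin, stood at 1.10, 0.96 and 0.59 in Peyer's patch and at 2.36, 2.45 and 2.18 in peripheral arrays (-1.45 ± 0.17, adjusted p = 3.76e-05). Cdh13, an adiponectin-binding cadherin, was lower by 1.12 ± 0.17 and the endothelin receptor Ednrb by 0.70 ± 0.13. Gpihbp1, which carries lipoprotein lipase to the lumen, was lower by 0.75 ± 0.18 (adjusted p = 0.0171) and lost its call without Peyer's patch array 2 (adjusted p = 0.0709) or peripheral array 3 (adjusted p = 0.0948). Car4, the membrane-bound carbonic anhydrase of capillaries, stood at 5.04, 4.71 and 4.63 against 3.70, 4.21 and 3.77, higher by 0.90 ± 0.20 (adjusted p = 0.0131), and lost its call without Peyer's patch array 1 or peripheral array 1 or 3 (adjusted p = 0.0575 to 0.0687). The higher count was 1 without Peyer's patch array 1 or peripheral array 3, and the lower count was 3 without Peyer's patch array 2 or peripheral array 3. Cd36, the fatty acid transporter, was 5.50, 5.66 and 5.65 against 4.56, 4.84 and 4.84, yet its difference of 0.86 ± 0.32 did not pass the test (adjusted p = 0.186). That SE is pooled over all 19 arrays. The SD of Cd36 was 0.09 and 0.16 in the compared groups but 0.45 and 0.53 in HEC of these tissues, so the result does not show that Cd36 was alike. Plvap, which forms the diaphragms of fenestrae, was 0.32, 0.33 and 0.43 against 0.44, 0.36 and 0.38 (-0.03 ± 0.08, adjusted p = 0.956).

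Fatty acid and lipid genes were split as well, with 3 higher and 5 lower of 25, 32.0% beside 4.64%. Pparg, a nuclear receptor that drives fatty acid uptake, stood at 1.04, 1.00 and 0.67 in Peyer's patch and at 1.81, 1.81 and 2.27 in peripheral arrays (-1.06 ± 0.12, adjusted p = 2.98e-05). Angptl4, an inhibitor of lipoprotein lipase and a Pparg target, was lower by 1.75 ± 0.35 and the lipoprotein receptors Scarb1 and Vldlr by 0.91 ± 0.10 and 1.00 ± 0.19. Fabp5, a fatty acid binding protein, was higher by 1.22 ± 0.26, at 2.01, 1.88 and 1.88 against 0.80, 0.67 and 0.64.

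Genes of vessel tone and clotting included several large differences. Plat, the tissue plasminogen activator, stood at 2.16, 2.25 and 2.16 in Peyer's patch and at -0.22, -0.25 and -0.06 in peripheral arrays (2.37 ± 0.22, adjusted p = 2.52e-06). Plau, the urokinase-type activator of the same reaction, stood at 0.03, 0.10 and 0.13 against 1.29, 1.64 and 1.11 (-1.26 ± 0.17, adjusted p = 0.000111). The arrays of each group were thus separated in opposite directions for these 2 proteases. F2rl3, a thrombin receptor, was higher by 1.35 ± 0.17, while Tfpi, an inhibitor of tissue factor, and F8, clotting factor VIII, were lower by 1.62 ± 0.27 and 1.41 ± 0.29, the latter by 0.59 without peripheral arrays 1 and 2. Of 24 clotting genes 3 were higher and 5 lower (33.3% beside 4.64%), with 3 lower without Peyer's patch array 2 or without peripheral array 1 or 2.

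In the list of nitric oxide, endothelin and natriuretic signalling 5 of 29 genes were higher, all held, and 3 lower (27.6% called beside 4.64%), with 1 lower without Peyer's patch array 3. Ace, the angiotensin-converting enzyme, stood at 1.39, 1.47 and 1.34 against 0.39, 0.37 and 0.18 (1.09 ± 0.09, adjusted p = 7.85e-07). Nos3, the endothelial nitric oxide synthase, stood at 1.55, 1.25 and 1.21 against 0.62, 0.57 and 0.58 (0.75 ± 0.12, adjusted p = 0.000555). Ddah1 and Ddah2, which clear an inhibitor of that enzyme, were higher by 0.99 ± 0.21 and 0.58 ± 0.12. The potassium channel Kcna5 was higher by 1.32 ± 0.16 and the calcium channel Orai1 by 0.94 ± 0.11.

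Cytokine and death receptors gave 8 higher of 25, all of which held, and 4 lower (48.0% called beside 4.64%), with 2 lower without Peyer's patch array 3. Lepr, the leptin receptor, stood at 1.09, 1.49 and 1.30 in Peyer's patch and at -0.57, -0.95 and -0.65 in peripheral arrays (2.02 ± 0.23, adjusted p = 2.12e-05). Fas, a death receptor, stood at 0.54, 1.31 and 1.21 against -1.08, -1.07 and -0.56 (1.92 ± 0.21, adjusted p = 1.38e-05). Il4ra, the shared receptor chain for interleukins 4 and 13, was higher by 1.04 ± 0.13, Tnfrsf9 (4-1BB) by 1.12 ± 0.18, and Lifr and Osmr, receptors of the interleukin 6 family, by 0.82 ± 0.13 and 0.65 ± 0.13. Socs3, a feedback inhibitor that such receptors induce, stood at 0.76, 1.23 and 1.31 against -0.45, -0.35 and -0.24 (1.45 ± 0.17, adjusted p = 3.46e-05). The lower members Csf2rb and Csf2rb2, the beta chains of the interleukin 3 and GM-CSF receptors (-0.89 ± 0.17 and -1.13 ± 0.18), are near-identical copies that the probes may not separate.

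Matrix, adhesion and sugar-modifying genes differed member by member. The integrin chains Itga3 (-1.25 ± 0.15) and Itga2 (-0.99 ± 0.18) were lower and Itgb5 (1.26 ± 0.14) was higher, and the hyaluronan receptor Cd44 stood at 1.44, 0.88 and 0.68 in Peyer's patch and at -0.44, 0.00 and -1.06 in peripheral arrays (1.50 ± 0.25, adjusted p = 0.000829). N-cadherin (Cdh2) was lower by 1.49 ± 0.17 and the tight junction protein Cldn12 higher by 1.38 ± 0.15, whereas the endothelial junction proteins Cdh5 (-0.03 ± 0.08), Pecam1 (-0.13 ± 0.10) and Cldn5 (-0.56 ± 0.32) did not pass the test (adjusted p = 0.95, 0.727 and 0.537). Among 28 genes of heparan sulfate 4 were higher and 2 lower, 21.4% beside 4.64%. Hpse, the heparanase that cleaves these chains, stood at 1.94, 1.39 and 1.47 against 0.02, 0.25 and -0.34 (1.62 ± 0.16, adjusted p = 4.25e-06), and the sulfotransferase Hs3st1 was higher by 1.31 ± 0.14. The growth factor binding protein Igfbp4 stood at 1.11, 1.37 and 1.40 against -0.66, -0.55 and -0.45 (1.84 ± 0.14, adjusted p = 1.76e-07). Of the Wnt pathway the inhibitor Apcdd1 was lower by 1.41 ± 0.11 (adjusted p = 2.75e-07), and of growth factors Hbegf, an EGF receptor ligand, by 1.75 ± 0.16.

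Genes of the cell cycle were lower where they differed: 6 of 41 were lower and 0 higher (14.6% beside 2.24% of all genes lower), and 37 differences were below 0, with a median of -0.34. The member with the largest difference was cyclin D1 (Ccnd1), at -0.42, -0.44 and -0.59 against 1.08, 0.70 and 0.71 (-1.31 ± 0.13, adjusted p = 6.91e-06). The list's mean was 0.52 in peripheral array 1 and 0.22 and 0.19 in arrays 2 and 3, and 3 genes were lower without array 1 and 2 without Peyer's patch array 2. After quantile normalization 11 were lower and with arrays centred on the median 3. Genes that tissue dissociation can switch on moved as well: 7 of 30 immediate-early genes were higher and 1 lower, which did not hold, 26.7% beside 4.64%, with 2 to 4 higher without any 1 of Peyer's patch arrays 2 and 3 and peripheral arrays 1 and 2. Of 15 heat shock genes 3 were higher and 1 lower (26.7% beside 4.64%), and the 3 higher ones, among them Hspa1a (1.20 ± 0.24), held. Egr2, an immediate-early transcription factor, was higher by 0.97 ± 0.18. The time from tissue to RNA is not in the labels, and its part in other differences was not tested.

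Whether the tissues differed in the same way in HEC was tested on the interaction, the capillary difference minus the HEC difference. It was past the threshold in 808 of 19938 genes (4.05%) and in 399 of the 925 capillary calls, 223 higher and 176 lower. Without Peyer's patch HEC array 3 there were 2921 interaction calls and without HEC array 1 of that tissue 518, without Peyer's patch capillary array 2 there were 505, and without peripheral capillary arrays 1 and 2 there were 357. The 2 contrasts share no array. Of the 925 genes 248 were also called in the same direction in HEC and 51 in the opposite direction, out of 1326 called in HEC, and over all genes the 2 tissue differences had a Pearson correlation of 0.19, given as a description since genes are not replicates.

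Of the 15 highest and 15 lowest capillary differences 25 had such an interaction, 11 of the high and 14 of the low genes. Pcx differed by 2.49 in capillary cells and by -0.15 in HEC (interaction 2.64, adjusted p = 1.07e-08). Btnl9 differed by -3.22 and 0.06 (interaction -3.28, adjusted p = 1.02e-08), and Cxcl9 by -2.79 and 0.01 (interaction -2.79, adjusted p = 1.28e-06). In these 3 genes the tissue difference was larger in capillary cells, and in HEC it did not pass the test. The means in Peyer's patch and peripheral HEC were -0.54 and -0.39 for Pcx, -0.11 and -0.17 for Btnl9 and 0.52 and 0.51 for Cxcl9. Whether HEC held signal over background that could differ is unknown in centred values.

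A few of these genes differed alike or in reverse. Nkx2-3 differed by 2.27 in capillary cells and 2.02 in HEC, Meis2 by 2.88 and 2.42, Cysltr1 by 3.74 and 2.69 and Bmp2 by -1.92 and -1.99, with interactions that did not pass the test (adjusted p = 0.585, 0.304, 0.129 and 0.92). Plat was higher by 2.37 in capillary cells and lower by 0.75 in HEC (interaction 3.12, adjusted p = 7.41e-06). Aplnr was lower by 0.87 in capillary cells and higher by 2.95 in HEC (interaction -3.82, adjusted p = 1.18e-08). Madcam1 and Chst4 differed in HEC by 3.72 and -4.12, more than in capillary cells, where the values were 0.97 and -1.42 (interactions -2.75 and 2.71). Of the arterial genes tested here Gja5 had an interaction of 1.66 (adjusted p = 0.000515) and Efnb2 of 0.73 (adjusted p = 0.0232). Their HEC differences were -0.06 and -0.56. In the arterial list 11 of 20 genes had an interaction past the threshold, beside 4.05% of all genes.

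**Figure D4:**
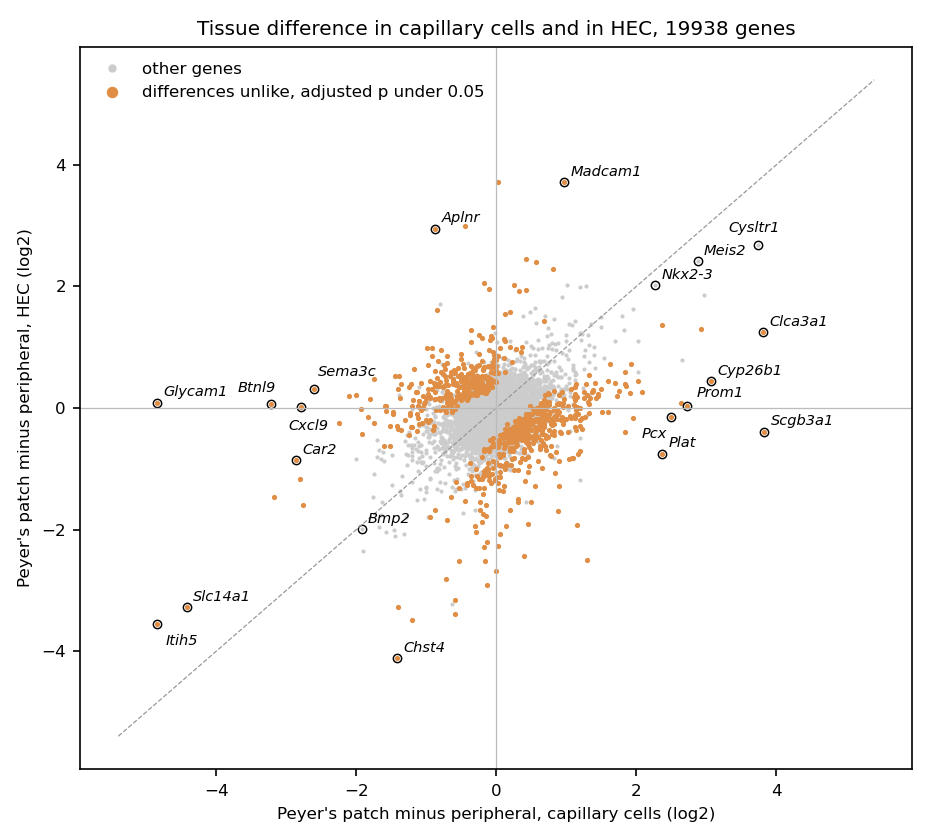
Peyer's patch minus peripheral difference (log2) in capillary cells (horizontal axis) and in HEC (vertical axis) for each of 19938 genes, with equal differences on the dashed line. Orange points are the 808 genes whose 2 differences were unlike. Pcx, Prom1 and Btnl9 lie near the horizontal axis, Meis2 and Nkx2-3 near the dashed line, and Aplnr at the upper left at -0.87 and 2.95.

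Mesenteric capillary arrays, 2 in number, lay between the groups, or beside or beyond the peripheral arrays, for most large differences. Contrasts against them reuse the compared arrays, so the values are only set side by side. For the 253 genes with at least a 2-fold difference, the mesenteric mean was placed on the way from the peripheral to the Peyer's patch mean. It lay at 25% or less in 122, between 25% and 75% in 111 and at 75% or more in 20. The outer counts have no bound, so they take in means beyond a compared group, such as that of Btnl9. In the contrast of Peyer's patch against mesenteric capillary cells 370 genes were called and in that of mesenteric against peripheral 58.

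Scgb3a1 stood at 3.77 and 3.90 in the mesenteric arrays, 3.11 ± 0.39 above the peripheral mean (adjusted p = 0.00163), while its difference from Peyer's patch, 0.72 ± 0.39, did not pass the test (adjusted p = 0.765). Meis2 stood midway at 0.50 and 0.35, and so did Prom1 at 1.97 and 1.89. Pcx (0.21 and -0.04), Cyp26b1 (0.00 and 0.21) and Clca3a1 (-0.06 and 0.31) stood with the peripheral arrays, as did Btnl9 (4.49 and 4.76) and Sema3c (2.25 and 2.12) among the low genes. Slc14a1 (0.28 and 1.02) and Cxcl9 (-0.68 and -1.01) were in between. Hoxa5, at 1.18 and 1.14, was as high in mesenteric as in Peyer's patch arrays, and the lipid gene Angptl4, at 1.52 and 1.72, was above both compared groups.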

How the data were processed

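Per the labels' protocols, sorted endothelial RNA was amplified and turned into labelled single-stranded cDNA for Affymetrix arrays. The deposited values are log2 signals, which the authors made with RMA in Partek per the submitters' processing notes, without versions. Their range was -4.092 to 6.128, with an exact 0 in 54.47% of probe sets, so the authors had centred each probe set on a baseline not given in the sources used here. Level, background and detection are thus unknown, and the number of arrays limits the precision.

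The platform annotation gave 1 symbol to 21789 of 28856 probe sets, several to 1621 and no name to 5446. By Entrez identifier 21698 matched the GRCm38.p6 gene table, with 0 symbols updated. Averaging the probe sets of a gene (999 genes had several) left 19938 genes. Group means (7 groups) were fitted to all 19 arrays with limma 3.58.1 in R 4.3.3 (12 residual and 4.62 prior degrees of freedom). P-values are two-sided, adjusted by Benjamini-Hochberg over all genes per contrast, with a threshold of 0.05, and differences carry the model's SE. The fit was tested on simulated data. Figures used matplotlib 3.10.9 in Python 3.11.15.

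Named genes were the 15 highest and 15 lowest called differences of at least 1 whose arrays did not overlap (predicted genes, chemosensory receptors, small RNAs and antigen receptor segments left out), called members of the lists by size of difference (at most 8 a list), and fixed genes; members near no difference were added. The 64 lists hold 1388 genes, 1289 measured. Members and lists were chosen with earlier results of these data known, and no list was tested as a set. Whether array numbers pair the samples is not known, and the main fit did not pair them. Deviations of same-numbered arrays correlated at 0.417, -0.163 and 0.355, and those of the other pairs at -0.471 to 0.227, which does not settle it. Alternatives were a replicate block, each compared array left out, peripheral capillary arrays 1 and 2 left out, other probe set rules, quantile normalization, median centring, array weights, smaller fits (6 or 8 arrays), a robust prior and a filter on range. Leaving out Peyer's patch capillary arrays 2 and 3, or each HEC array, was added after seeing the data.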

Additional observations from a re-analysis of the deposited data

Results flagged for a closer look

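The capillary and HEC differences between the tissues were unlike in 25 of the 30 genes with the most extreme capillary differences, by the interaction test. The interaction is the capillary difference minus the HEC difference (log2). It was above 0 for Scgb3a1 (4.22), Plat (3.12), Prom1 (2.69), Cyp26b1 (2.64), Pcx (2.64), Clca3a1 (2.56), Gadd45g (2.55), Chrm2 (1.80), Mctp1 (1.62), Tmem35a (1.59) and Klf12 (1.01). It was below 0 for Glycam1 (-4.93), Btnl9 (-3.28), Sema3c (-2.93), Cxcl9 (-2.79), Gpr37 (-2.22), Olfml2a (-2.01), Car2 (-2.00), Map2 (-1.92), AI504432 (-1.70), Itm2a (-1.65), Piezo2 (-1.49), Itih5 (-1.28), Atp1b1 (-1.17) and Slc14a1 (-1.13). The genes were chosen by the capillary difference, which is part of the interaction, so the count of 25 is a description.

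Of these, 19 stayed past the threshold in all 22 alternatives that give an interaction, and all 25 kept their direction there. Slc14a1 passed in 8 of the 22 (highest adjusted p = 0.227), Itih5 and AI504432 in 20, and Klf12, Itm2a and Atp1b1 in 21. The interaction of Glycam1 ranged from -5.79 to -3.23. Its mean was 5.01 in Peyer's patch HEC and 4.92 in peripheral HEC, beside 4.42, 4.11 and 1.70 in peripheral capillary arrays 1 to 3. A part of HEC in that interaction was not tested. Groups of 3 arrays were too small for a check on outlying arrays.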

How the results depend on the processing

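Against 925 calls (478 higher, 447 lower), peripheral capillary arrays 1 and 2 left out gave 354 (220 and 134), Peyer's patch capillary arrays 2 and 3 left out 368 (232 and 136), and array quality weights 1516 (778 and 738), where the weights did not converge and Peyer's patch HEC array 1 had a weight of 41.6. With each compared or HEC array left out there were 648 to 1041 calls, 359 to 542 higher and 288 to 499 lower. The other alternatives stayed within 1.5 times, from 682 with the 6 compared arrays to 1181 after quantile normalization. The interaction, with 808 calls, gave 357, 325 and 6443 under those first 3 alternatives and 505 to 2921 with an array left out. The replicate block gave 999 calls and 705 interactions, 880 of the 925 calls shared. Not every array correlated best with its own number.

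Of 267 called genes that are named or on a list, 103 stayed past the threshold under all 18 alternatives tried for them. Fabp2 turned to -0.03 without Peyer's patch arrays 2 and 3, where the uncalled Cldn5 was 0.25, Cdh5 0.06, Gata4 -0.20 and Cd79b 0.00. Without peripheral arrays 1 and 2 Cdh5 was 0.05, Gata4 -0.02 and Xist 0.06. Efnb2 was -0.07 after quantile normalization, and Xist 0.05 with weights. With 1 array left out Cdh5 ran from -0.08 to 0.01, Gata4 from -0.09 to 0.18, Meox2 from -0.09 to 0.27 and Xist from -0.36 to 0.14. Signal over background is unknown in centred values, so probe sets near background could not be set apart.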

Other observations

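Several genes on no list had large differences that held with each compared array left out, and they were chosen after their values were seen. Hcar1, the lactate receptor, stood at 2.72, 2.80 and 2.74 in Peyer's patch capillary arrays and at 0.88, 0.76 and 0.90 in peripheral ones (1.91 ± 0.09, adjusted p = 4.04e-10 by limma). Cdk6, a kinase of the G1 phase, was higher by 1.83 ± 0.12 while its partner Ccnd1 was lower by 1.31 ± 0.13. Tnfsf9, the ligand of 4-1BB, was higher by 1.73 ± 0.15 and its receptor Tnfrsf9 by 1.12 ± 0.18. Grp, the gastrin-releasing peptide, stood at 1.52, 1.23 and 1.29 against 0.00, -0.04 and -0.03 (1.37 ± 0.11). The enzymes Ada, which deaminates adenosine, and Maoa, which oxidises monoamines, were higher by 1.14 ± 0.16 and 1.13 ± 0.21. Tspan8, a tetraspanin that epithelium also makes, was higher by 2.02 ± 0.35, at 3.21, 4.12 and 4.18 in the Peyer's patch arrays, whose epithelial means ran in the same order.

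Among lower genes of this kind were Bst1, an ectoenzyme that uses NAD (-1.91 ± 0.28), the cytokine Il1a (-1.83 ± 0.26) and the iron hormone hepcidin (Hamp, -1.64 ± 0.26). Carboxylesterases Ces2e and Ces2g were lower by 1.65 ± 0.25 and 1.60 ± 0.20, but they have close paralogs that probes may not separate. The potassium channel Kcna3 was lower by 1.48 ± 0.18, while Kcna5 was higher by 1.32 ± 0.16. Car3, a further carbonic anhydrase, was lower by 1.23 ± 0.19, as was Car2, and Pdk4, which restrains pyruvate oxidation, was lower by 1.25 ± 0.18 where Pcx was higher by 2.49 ± 0.10. The cannabinoid receptor Cnr2 stood at 1.26, 0.84 and 0.96 in peripheral arrays and at -0.34, -0.46 and -0.25 in Peyer's patch (-1.37 ± 0.17).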
